A study of Mus musculus with 6 samples.

Results

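The genes described here carry the first steps of T cell receptor signalling: Cd3d, Cd3e, Cd3g and Cd247 for the signalling chains, Lck and Zap70 for the kinases, Lat and Lcp2 for the adaptors, and Cd5 for a receptor that restrains the signal. They were taken by gene symbol from a published table of read counts, which held 1 row for each of the 9 among its 51912 mouse genes. The counts came from RNA sequencing of EL4, a mouse T cell lymphoma line of wild-type genotype. In 3 libraries the cells had been given vehicle, and in 3 libraries 10 µM RGFP966, which inhibits histone deacetylases and foremost HDAC3, for 24 h. Every library is of this 1 line, and nothing in the labels says whether separate cultures were used, so p-values measure the spread between these samples, which may be technical. In bulk RNA, fewer cells that express a gene and less of its RNA per cell cannot be told apart. The comparison asked which of these transcripts differ after exposure to the inhibitor.

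As background, the antigen-binding chains of the T cell receptor have no signalling domain of their own and are held at the surface by the CD3 chains and the zeta chain. The kinase LCK phosphorylates tyrosine motifs in those chains, which then dock the kinase ZAP-70. ZAP-70 phosphorylates LAT and SLP-76, the scaffold on which phospholipase C, guanine nucleotide exchange factors and TEC family kinases gather, and CD5 is a surface receptor that dampens the pathway and whose level in thymocytes follows the strength of the receptor signal.

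In EL4 cells given RGFP966, Cd5 transcripts were 21.2% higher than in vehicle cells and Lat transcripts fell by 14.2%, and both calls held in all 15 alternative settings. Zap70 and Cd247 were also called lower, but lost the call in 11 and 9 of those settings. The levels of Cd3d, Cd3e, Cd3g, Lck and Lcp2 showed no difference that passed the test, with 95% intervals that lay between a log2 fold change of -0.15 and 0.17. The threshold for a call was 0.05 for the adjusted p of edgeR's quasi-likelihood test. All 9 genes passed the filter on low counts, and 1 was called higher and 3 lower. Of all 13484 genes tested, 23.3% were called, 11.4% as higher and 11.9% as lower. The median log2 fold change was -0.0057 over the 9 genes and -0.002 over all tested genes.

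Library totals ran from 12935443 to 16451017 counts, and the 3 vehicle totals were all above the 3 RGFP966 totals (p = 0.1 in an exact two-sided permutation test, which can give no smaller value). No library was a copy of another, since chi-square per degree of freedom between libraries of 1 group was 2.15 to 3.33. The balance of calls over all genes moved with the scaling, from 1543 higher and 1602 lower to 1838 higher and 1270 lower with upper-quartile factors. The 9 genes lay above 46.4% (Cd247) to 96.7% (Lat) of the tested genes in count level. As they were chosen as T cell genes, this is no independent check of the T cell label. The other T cell markers listed were receptor constant genes. Trac was called higher, going from a vehicle mean of 52.6 CPM to 59.2 CPM after RGFP966 (log2 fold change 0.17, adjusted p = 0.0229). Trbc2 was called higher as well, from 15.4 to 19.5 CPM (0.34, adjusted p = 7.98e-03), and neither gene's groups overlapped. Of the Trbc2 sequence 44% is shared with other genes in words of 50 bases, most with Trbc1, so its counts are less certain. Trbc1 had 0 to 3 counts and was not tested. The labels' extraction text names retinas, but 5 of 7 retina markers stayed under 10 counts in every library, and their summed level was 2.64 to 3.65 CPM (counts scaled to a common library total). All 6 NK cell markers were under 10 counts. Of 7 B cell markers, 5 were under 10 counts, with the defining marker Ms4a1 at 0 in all libraries, but the summed level was 11.3 to 12.1 CPM in vehicle and 18.5 to 19.1 CPM in RGFP966 libraries. Of 7 myeloid markers 4 were under 10 counts, with Adgre1 at 0 (summed level 12.3 to 13.9 and 12.7 to 13.03 CPM). The other myeloid markers were present, with vehicle and RGFP966 means of 8.27 and 7.87 CPM for Lyz2, 3.93 and 3.16 CPM for Cd68, and 0.763 and 1.49 CPM for Itgam. Of 6 fibroblast markers 4 were under 10 counts, with Col3a1 and Pdgfrb at 0 (44.2 to 45.1 and 54.2 to 56.6 CPM). Most of both differences lay in 1 gene each, Cd22 (9.40 and 16.6 CPM) and Pdgfra (44.3 and 54.1 CPM), chosen after their values were seen. The part of the B cell and fibroblast marker differences in the results was not tested.

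The windows of 250 bases before the annotated starts of 4 of these genes are shown, because Cd5 and Lat moved in opposite directions and Cd3g and Cd3d lie back to back, with neither called. They come from RefSeq (build GRCm38.p6), which held windows for all 9 genes, 12 in all since Lck and Zap70 have more than 1 start. Capitals mark the ETS core word AGGAAG and the E-box word CAGNTG, searched on both strands with overlaps allowed.
Cd5 (chr19:10738975-10739224, minus strand): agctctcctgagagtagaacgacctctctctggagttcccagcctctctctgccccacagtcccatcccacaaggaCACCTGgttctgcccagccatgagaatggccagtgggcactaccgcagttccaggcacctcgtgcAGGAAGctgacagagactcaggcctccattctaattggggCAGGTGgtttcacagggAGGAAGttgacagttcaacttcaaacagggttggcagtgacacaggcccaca
Lat (chr7:126369569-126369818, minus strand): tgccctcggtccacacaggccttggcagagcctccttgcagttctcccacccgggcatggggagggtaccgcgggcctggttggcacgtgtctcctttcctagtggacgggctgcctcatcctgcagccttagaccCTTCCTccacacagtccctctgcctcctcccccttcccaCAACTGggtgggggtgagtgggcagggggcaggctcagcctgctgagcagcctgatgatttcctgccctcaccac
Cd3g (chr9:44980432-44980681, minus strand): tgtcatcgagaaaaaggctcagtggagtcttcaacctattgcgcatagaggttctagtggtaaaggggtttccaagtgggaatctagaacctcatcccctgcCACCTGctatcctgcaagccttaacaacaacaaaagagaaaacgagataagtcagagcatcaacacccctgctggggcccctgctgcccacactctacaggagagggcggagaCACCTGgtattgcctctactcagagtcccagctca
Cd3d (chr9:44981536-44981785, plus strand): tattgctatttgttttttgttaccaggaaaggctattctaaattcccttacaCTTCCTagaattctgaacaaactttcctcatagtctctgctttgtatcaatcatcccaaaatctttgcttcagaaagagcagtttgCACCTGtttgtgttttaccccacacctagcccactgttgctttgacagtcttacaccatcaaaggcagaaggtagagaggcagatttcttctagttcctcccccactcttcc
The ETS word was found in 10 of the 12 windows, against 29.5% of all 32851 windows of that length. The E-box word was in 9 of the 12, against 44.8%. The window of Cd5 held 2 matches of each, and that of Lat 1 of each, so both words were present before the gene that rose and before the gene that fell. The Ikaros word TGGGAA was in 7 of 12 windows (21.6% of all), the RUNX word TGTGGT in 2 (14% of all), the GATA word AGATAA in 2 (9.99% of all) and the word TGACGT from cyclic AMP response elements in 2 (6.47% of all). TATAAA was in 0 of 12, and in 12.4% of all windows. GC content was 56.8% for Cd5 and 65.2% for Lat, and the median of all windows was 52.4%. A match is a description of these letters and not a binding site.

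Cd3d, Cd3g and Cd3e encode the delta, gamma and epsilon chains that pair into the CD3 heterodimers, and none of them passed the test. They form a cluster of 40.1 kb on chromosome 9 (mm10), in which the start of Cd3g (44969572 to 44980431, minus strand) lies 1355 bases from the start of Cd3d (44981786 to 44987339, plus strand), with Cd3e at 44998740 to 45009627 on the minus strand. Cd3d measured 193, 202 and 187 CPM in vehicle libraries 1 to 3 and 192, 198 and 193 CPM in RGFP966 libraries 1 to 3. The groups overlapped, and the means of 194 ± 7.33 and 194 ± 3.22 CPM (SD, n = 3) were nearly the same. The log2 fold change of Cd3d was 0.00 ± 0.04 (SE), with a 95% interval from -0.08 to 0.08 (adjusted p = 0.991). Cd3g measured 157, 173 and 156 CPM in vehicle and 161, 163 and 159 CPM in RGFP966 libraries, so that vehicle library 2 held the highest value and the groups overlapped. Its log2 fold change was -0.01 ± 0.04 (95% interval -0.09 to 0.08, adjusted p = 0.944). The sign of the Cd3d and Cd3g differences flipped in 4 and 6 of the 15 settings, among them upper-quartile factors and total counts for Cd3g. Cd3e was the least abundant of the cluster, at 51.3, 48.7 and 52.1 CPM in vehicle and 54.5, 52.5 and 50.2 CPM in RGFP966 libraries. Here too the groups overlapped (log2 fold change 0.05 ± 0.06, 95% interval -0.07 to 0.17, adjusted p = 0.620).

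Cd247 encodes the zeta chain, which carries most of the tyrosine motifs of the receptor and completes its assembly before it leaves the endoplasmic reticulum. It was the least abundant of the 9 genes, at 24.7, 27.7 and 24.8 CPM in vehicle and 23.9, 22.0 and 20.1 CPM in RGFP966 libraries. The lowest vehicle value was above the highest RGFP966 value by less than 1 CPM. The mean went from 25.8 ± 1.72 to 22.0 ± 1.89 CPM (SD, n = 3), or -0.23 ± 0.09 as a log2 fold change with its SE (adjusted p = 0.0418). The call did not hold without vehicle library 2 (adjusted p = 0.201) or 3 (0.0576), or without RGFP966 library 2 (0.0762) or 3 (0.268), nor with DESeq2's Wald test (0.127). Its adjusted p over the alternatives ran from 0.0273 to 0.268. On chromosome 1 (165788681 to 165877277, plus strand), 60.3% of the exonic bases of Cd247 are overlapped by other genes, chiefly by Pou2f1 on the opposite strand. Of its 6 coding transcripts, 5 run into Pou2f1 exons, with up to 80.5% of their length, and the remaining one, of 1632 bases, has no overlap. The sources used here do not say whether the counting used strand, so reads in the overlap cannot be assigned with certainty. Pou2f1, which encodes the octamer factor OCT1 and is named only for this overlap, measured 68.5 ± 4.76 and 68.4 ± 0.945 CPM (log2 fold change -0.0014 ± 0.05, adjusted p = 0.990).

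**Figure D1:**
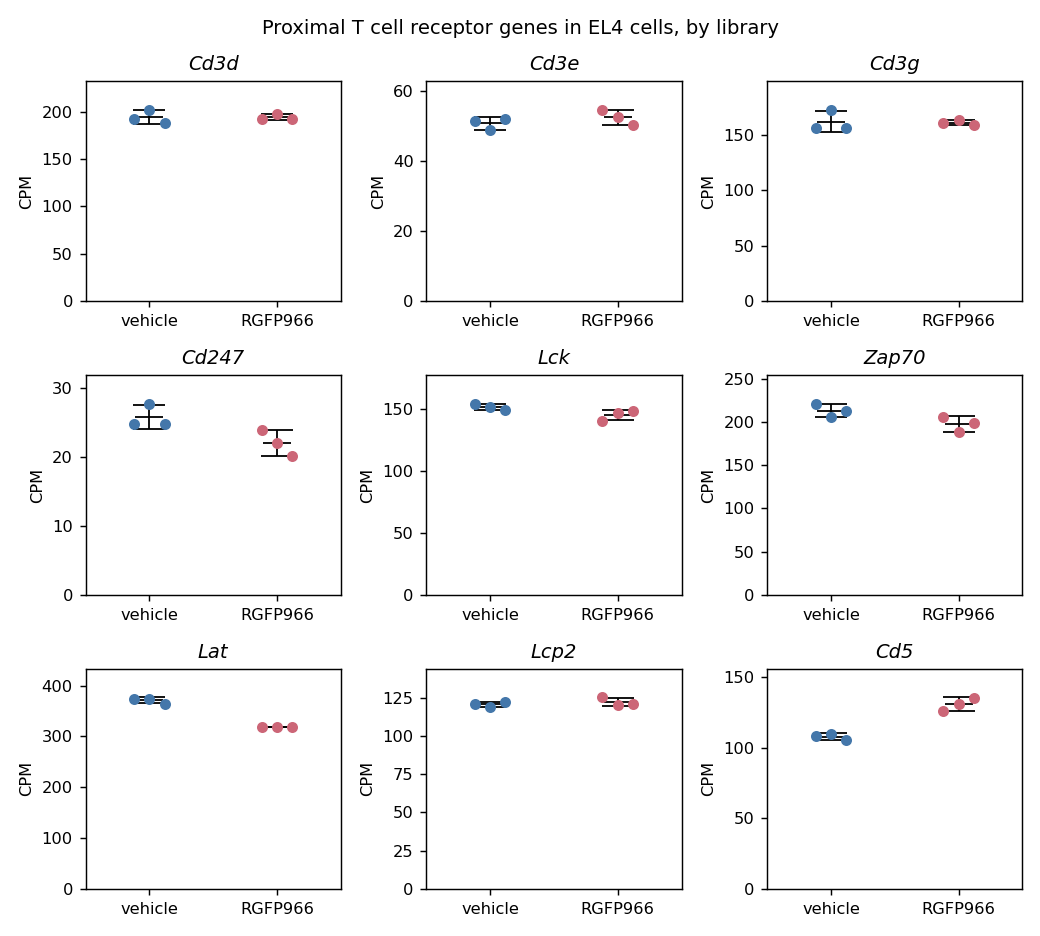
Level of each of the 9 genes (vertical axes, CPM from 0, scale set per gene) in the 3 vehicle libraries (blue) and the 3 RGFP966 libraries (red), with the mean and SD in black. Cd5 lies between 105 and 109.9 CPM in vehicle and between 126 and 135 CPM in RGFP966 libraries, Lat falls from about 371 to 318 CPM, and the groups of Cd3d, Cd3e, Cd3g and Lcp2 overlap.

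Among the kinases, Zap70 was slightly lower with RGFP966 and Lck was not called. Lck encodes the SRC family kinase that starts the phosphorylation cascade (chromosome 4, 129548344 to 129573641, minus strand). Its levels were 154, 152 and 149 CPM in vehicle and 140.2, 147 and 148 CPM in RGFP966 libraries. The groups of Lck did not overlap, but by a margin of about 1 CPM, and the log2 fold change of -0.07 ± 0.04 did not pass the test (95% interval -0.15 to 0.02, adjusted p = 0.280). Zap70, the gene of the kinase recruited to phosphorylated receptor chains (chromosome 1, 36761798 to 36782818, plus strand), measured 221, 206 and 212 CPM in vehicle and 206, 188 and 199 CPM in RGFP966 libraries. Vehicle library 2 and RGFP966 library 1 were almost level, at 205.7 and 205.6 CPM. The mean of Zap70 went from 213 ± 7.74 to 197 ± 8.92 CPM (SD, n = 3), or -0.11 ± 0.04 as a log2 fold change with its SE (adjusted p = 0.0466). That call was lost without vehicle library 1 (adjusted p = 0.263) or 3 (0.0952), without RGFP966 library 2 (0.267) or 3 (0.118), and under each scaling other than the one used (0.0577 to 0.125). Its adjusted p over all alternatives, those that kept the call included, ran from 0.0158 to 0.267. The table gives 1 count per gene, so the use of the separate starts of Lck and Zap70 was not analysed here. The groups did not overlap for 5 of the 9 genes, against 36.3% of all tested genes.

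Lat, which encodes the membrane adaptor phosphorylated by ZAP-70, was the most abundant of the 9 genes and the one that fell most clearly. It measured 375, 374 and 365 CPM in vehicle and 318.7, 318.8 and 317.9 CPM in RGFP966 libraries. All RGFP966 values were more than 40 CPM under the lowest vehicle value. The mean of Lat (chromosome 7, 126363824 to 126369570, minus strand) went from 371 ± 5.69 to 318 ± 0.4498 CPM (SD, n = 3), a log2 fold change of -0.22 ± 0.04 (SE, 95% interval -0.29 to -0.15, adjusted p = 5.80e-06). The SD over the RGFP966 libraries was smaller than the 4.81 CPM that counting error alone gives for 1 library. Over the alternatives the log2 fold change of Lat stayed between -0.23 and -0.20 and its adjusted p between 1.13e-07 and 2.71e-04. Lcp2 encodes SLP-76, the cytosolic adaptor that joins LAT in the signalling complex (chromosome 11, 34046920 to 34092295, plus strand). Its levels were 121, 119 and 122 CPM in vehicle and 125, 120.2 and 121 CPM in RGFP966 libraries, which overlapped. The log2 fold change of Lcp2 was 0.02 ± 0.04 (95% interval -0.07 to 0.10, adjusted p = 0.822), with a sign that flipped without RGFP966 library 1.

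Cd5 was the only one of the 9 genes called higher. It measured 108, 109.9 and 105 CPM in vehicle and 126, 131 and 135 CPM in RGFP966 libraries. Every RGFP966 value was at least 15 CPM above the highest vehicle value. The mean of Cd5 (chromosome 19, 10717116 to 10739002, minus strand) went from 108 ± 2.24 to 131 ± 4.85 CPM (SD, n = 3), a log2 fold change of 0.28 ± 0.04 (SE, 95% interval 0.19 to 0.37, adjusted p = 3.29e-06). Over the alternatives it stayed between 0.26 and 0.30, with an adjusted p between 1.15e-07 and 2.09e-04. Cd6, a structurally related receptor gene that lies 50339 bases from Cd5 on the same strand, had a value of 0.34 ± 0.15 (adjusted p = 0.0959) from a level of 7.77 ± 2.25 CPM. Its vehicle libraries were spread from 5.37 to 9.85 CPM and overlapped the RGFP966 libraries. Cd6 was called without vehicle library 1 (0.55, adjusted p = 8.52e-03).

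**Figure D2:**
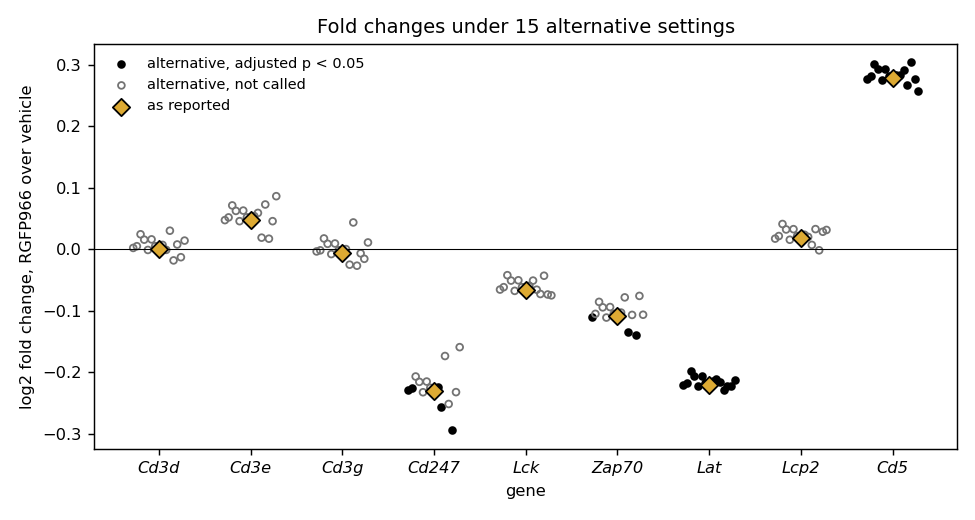
Log2 fold change (vertical axis, RGFP966 over vehicle) of each of the 9 genes as reported (diamonds) and under 15 alternative settings (circles, filled where the adjusted p was under 0.05, some behind a diamond). All 15 circles are filled for Cd5 and for Lat, 6 for Cd247 and 4 for Zap70, and none for the other 5 genes.

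Levels can be compared between genes only per length, and were scaled here as CPM per kb of the longest coding transcript. On that scale Lat led in vehicle cells at 301 ± 4.61 (SD, n = 3), followed by Cd3g at 158 ± 9.27, Cd3d at 119.9 ± 4.53, Zap70 at 94.9 ± 3.45 and Lck at 69.5 ± 1.16. Cd5 at 36.1 ± 0.748, Cd3e at 34.7 ± 1.19 and Lcp2 at 33.1 ± 0.449 were close on that scale, and the SD ranges of Cd5 and Cd3e and of Cd3e and Lcp2 overlapped. Cd247 was lowest at 8.71 ± 0.580. With RGFP966 the order of these length-scaled levels was the same, with Cd5 at 43.7 ± 1.62 now clear of Cd3e at 35.8 ± 1.48. Scaled by all exonic bases instead, Lat remained first at 134 and Cd247 last at 4.83, but Cd3g moved down to 49.5, behind Lck at 51.8, since its exonic length of 3269 bases is far above the 1023 bases of its longest coding transcript. On this scale Lcp2 at 27.1, Cd5 at 21.9 and Cd3e at 12.4 were no longer close, and their order differed from that by coding transcript. Cd3e was below Cd3d and Cd3g on both scales. The level of Cd247 carries the overlap with Pou2f1 described above.

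**Figure D3:**
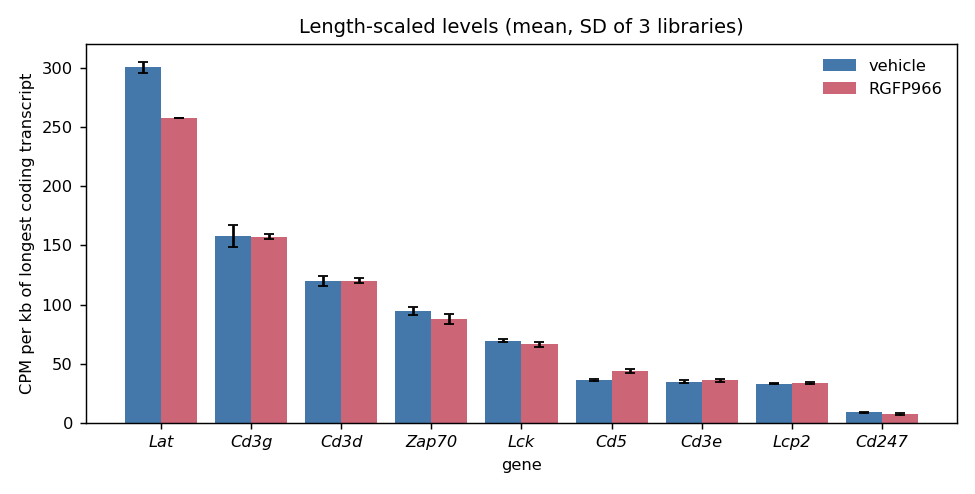
Length-scaled level of each gene (vertical axis, CPM per kb of the longest coding transcript, from 0) in vehicle (blue) and RGFP966 (red) cells, as the mean of 3 libraries with the SD. Lat stands highest at 301 and 258, and Cd247 lowest at 8.71 and 7.44.

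Ratios of counts within a library do not depend on how libraries are scaled, and 5 were computed. The ratio of Lcp2 to Lat, the adaptor pair, was 0.322, 0.318 and 0.336 in vehicle and 0.393, 0.377 and 0.381 with RGFP966. The groups did not overlap, and the ratio was 17.9% higher with RGFP966, a log2 difference of 0.24. Lat relative to Cd3e fell by 17%, from 7.31, 7.68 and 7.003 to 5.84, 6.07 and 6.33. Cd5 relative to Cd3e was 17.2% higher, going from 2.11, 2.26 and 2.03 to 2.31, 2.49 and 2.70. The smallest RGFP966 value of that ratio was 2.31 and the largest vehicle value 2.26, so these groups lay close. Cd247 relative to the geometric mean of Cd3d, Cd3e and Cd3g was 0.214, 0.233 and 0.216 in vehicle and 0.201, 0.185 and 0.174 in RGFP966 libraries. The groups of that ratio did not overlap either. Each of these 4 ratios had a two-sided exact permutation p = 0.1 with n = 3 per group, the smallest this design allows, and 0.125 with Benjamini-Hochberg adjustment over the 5. The ratio of Zap70 to Lck overlapped between groups, at 1.43, 1.35 and 1.42 in vehicle and 1.47, 1.28 and 1.34 with RGFP966 (two-sided exact permutation p = 0.6, n = 3, adjusted 0.6).

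**Figure D4:**
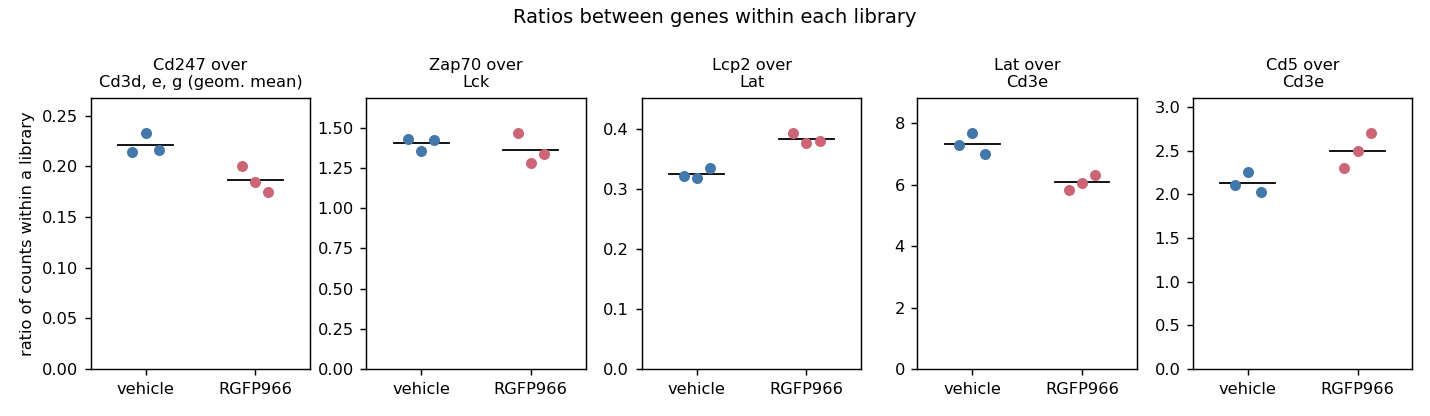
Ratios of counts between genes within each library (vertical axes from 0, scale set per ratio), in vehicle (blue) and RGFP966 (red) libraries, with black lines at the geometric means. The groups are apart in 4 of the 5 ratios and overlap for Zap70 over Lck.

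Beyond the 9 genes, 64 further genes of the proximal pathway were listed by role, of which 57 passed the filter on low counts. A gene on more than 1 list was counted once. Of these, 16 were called higher and 5 lower, or 28.1% and 8.77%, where all tested genes gave 11.4% and 11.9%. Their median log2 fold change was 0.07, with -0.002 over all tested genes. The lists were chosen with earlier results of these data known, so these shares are no independent result. They were also not compared at equal count levels.

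Among 12 receptor chain and coreceptor genes, 8 were tested, 5 were higher and 1 lower. Tcrg-C4, a constant segment of the T cell receptor gamma chain, rose from 84.0 ± 3.42 to 114 ± 1.85 CPM (SD, n = 3; log2 fold change 0.44 ± 0.05 SE, adjusted p = 1.58e-10). Tcrg-C1, another gamma constant segment, fell from 17.8 ± 0.332 to 11.96 ± 1.13 CPM (-0.57, adjusted p = 3.60e-05). Of the Tcrg-C1 sequence 34.2% is shared with other genes in words of 50 bases, most with Tcrg-C3, so its counts are less certain. Tcrg-C2, chosen after its values were seen, was the most abundant gamma segment listed, at 176 ± 10.3 and 173 ± 4.74 CPM. It was not called (-0.03, adjusted p = 0.680), and 25.4% of its sequence is shared in the same way. Cd2, the gene of an adhesion receptor that assists T cell signalling, rose by 0.56 (adjusted p = 1.00e-03) and the costimulatory receptor gene Cd28 by 0.23 (adjusted p = 3.40e-03). The remaining genes of this list called higher were Trac and Trbc2, with the values given above. The coreceptor genes, chosen after their values were seen, were near absent in both groups. Cd8b1 had 0 counts in all 6 libraries, which allows at most 0.182 to 0.232 CPM by library, Cd8a had 0 to 2 counts, and Cd4 had 9 to 23.

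Among 12 kinases and phosphatases, all were tested, 4 were higher and 1 lower. Ptprc, which encodes the phosphatase CD45 that keeps LCK active, rose from 648 ± 15.5 to 756 ± 3.86 CPM (SD, n = 3; log2 fold change 0.22 ± 0.04 SE, adjusted p = 2.34e-06). The phosphatase gene Ptpn22, a negative regulator of LCK and ZAP-70, rose by 0.38 (adjusted p = 4.18e-06), and Ptpn7, a phosphatase gene of lymphocytes, fell by 0.14 (adjusted p = 3.73e-03).

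Among 18 adaptors and scaffolds, 16 were tested, 4 were higher and 2 lower. Themis, whose product binds GRB2 and is needed in thymocyte selection, rose from 132 ± 4.66 to 180.1 ± 11.7 CPM (SD, n = 3; log2 fold change 0.45 ± 0.04 SE, adjusted p = 2.71e-11). Pag1, a membrane adaptor that recruits the inhibitory kinase CSK, rose by 0.22 (adjusted p = 1.45e-03) and Skap1, an adaptor in integrin activation, by 0.23 (adjusted p = 6.50e-03, but 0.0556 without RGFP966 library 2). Shc1, an adaptor towards RAS, fell by 0.19 (adjusted p = 5.93e-03). Sh2d2a, an adaptor that binds LCK, fell by 0.14 (adjusted p = 0.0205), but was not called under 6 of the 15 settings, with adjusted p-values of 0.114 and 0.12 without vehicle library 1 or 3 and of 0.0862 and 0.0654 without RGFP966 library 1 or 3. The remaining losses of Sh2d2a were with upper-quartile factors (0.0566) and by DESeq2 (0.0629). The adaptor genes Sh2d1a and Lime1, chosen after their values were seen, had 0 counts in all 6 libraries. For Lime1, 92.5% of the exonic bases are overlapped by Zgpat on the same strand. Reads there cannot be assigned with certainty, so the 0 counts of Lime1 do not show that it is silent.

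Among 13 effectors downstream of LAT and SLP-76, 12 were tested, 2 were higher and 1 lower. Rasgrp1, the RAS exchange factor activated by diacylglycerol, fell from 386 ± 9.77 to 300.3 ± 7.80 CPM (SD, n = 3; log2 fold change -0.36 ± 0.04 SE, adjusted p = 9.51e-11). Its vehicle libraries held 375 to 395 CPM and its RGFP966 libraries 292 to 308 CPM. Dgka, a diacylglycerol kinase that removes the lipid RASGRP1 binds, rose from 5.88 ± 1.17 to 11.5 ± 1.04 CPM (0.97 ± 0.14, adjusted p = 6.41e-07). Vav1, an exchange factor for small GTPases, rose by 0.12 (adjusted p = 0.0279), but was not called without vehicle library 1 (0.0667) or 2 (0.107), RGFP966 library 1 (0.109) or 3 (0.103), or in the DESeq2 Wald test (0.0509). Prkcq, which encodes the protein kinase C theta of T cells and was chosen after its values were seen, had 2 counts in RGFP966 library 1 and 0 in every other library.

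Among 10 negative regulators, all were tested, and 1, Sla, was called. Sla encodes an adaptor that promotes turnover of the receptor chains, and rose from 511 ± 10.3 to 560.2 ± 6.10 CPM (SD, n = 3; log2 fold change 0.13 ± 0.04 SE, adjusted p = 3.76e-03). Of 10 genes that receptor signalling induces, 7 were tested. Il2ra, the gene of the interleukin-2 receptor alpha chain, rose from 8.32 ± 0.848 to 10.6 ± 0.707 CPM (0.35, adjusted p = 0.0407), and Dusp2, a phosphatase gene, fell from 14.1 ± 1.06 to 11.1 ± 1.33 CPM (-0.35, adjusted p = 0.0190). The Il2ra call was lost without vehicle library 1 (0.0658) or 2 (0.184) and without RGFP966 library 1 (0.0952) or 3 (0.144), as well as with no filter (0.0646) and by DESeq2 (0.105). The Dusp2 call was lost without vehicle library 2 (0.0564) or 3 (0.0928) and without RGFP966 library 1 (0.112) or 3 (0.0923), as well as by DESeq2 (0.0663). Another list held 12 counterparts of the 9, mostly from B cells and other receptor systems, such as Syk for Zap70 and Blnk for Lcp2. Cd6 was listed as the relative of Cd5 and is not a gene of another receptor system. Of these 12, 9 were too low to test. By edgeR or limma-voom 0 of the other 3 were called, nor by DESeq2 for the 2 to which it gave an adjusted p. In edgeR 1 of them, Cd6, had an unadjusted p under 0.05 (0.0278), and Cd6 was called with the replicate number as a block (adjusted p = 0.0477). The tested ones were Cd6 and, at 9.26 ± 2.01 and 1.23 ± 0.206 CPM in vehicle, the receptor gamma chain gene Fcer1g (-0.01, adjusted p = 0.971, with a sign that flipped in several settings) and the adaptor gene Lat2 (-0.31, adjusted p = 0.596), whose exons are overlapped to 36.3% by Rfc2.

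**Figure D5:**
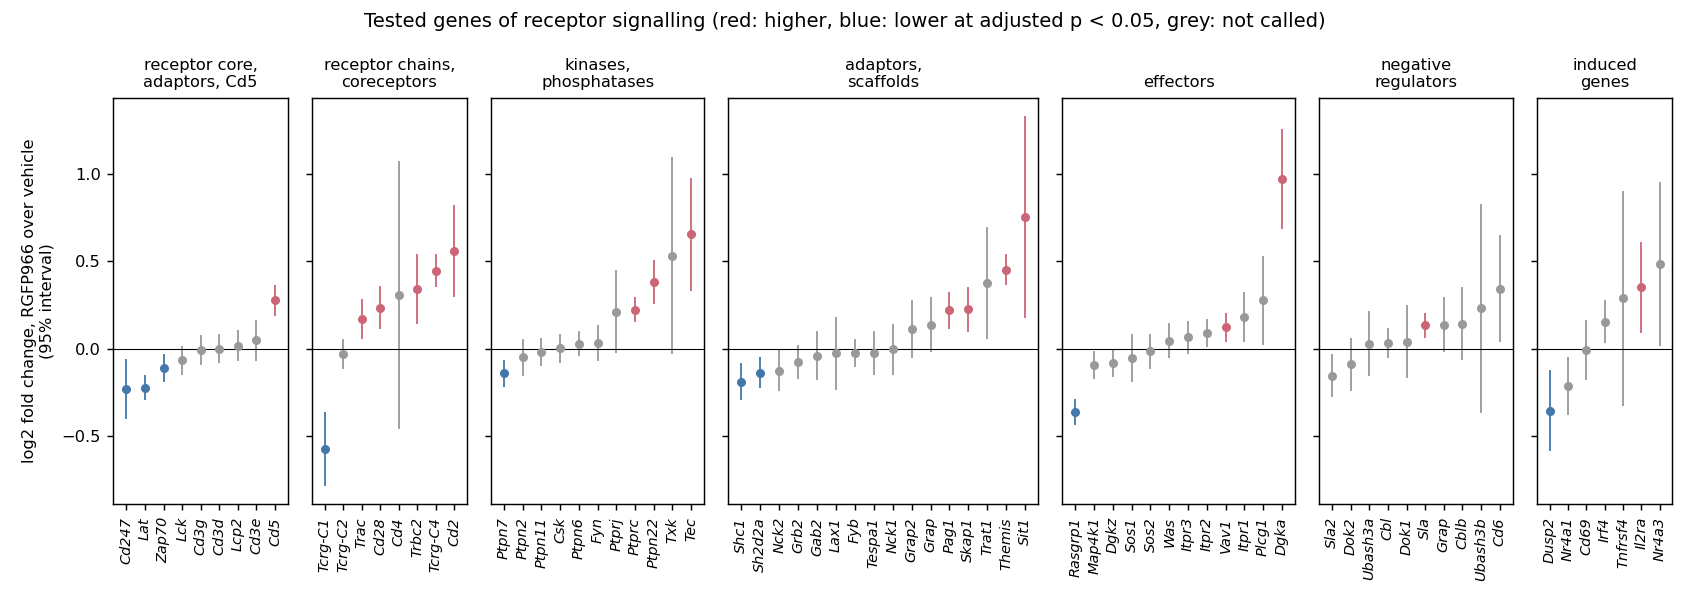
Log2 fold change (vertical axis, RGFP966 over vehicle, with the 95% interval) of tested genes of the pathway and of the genes it induces, by role, in red where called higher, in blue where called lower and in grey where not called. Cd5 stands at 0.28 against -0.22 for Lat in the leftmost panel, and Dgka at 0.97 and Rasgrp1 at -0.36 bound the effectors.

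Genes with the pattern most like Cd5 and Lat were sought over the 6 libraries, as the smallest root-mean-square difference of log2 CPM after centring each gene, among 9290 genes of at least 5 CPM. For Cd5 these were Fam234b (0.0215), Hmox1 (0.0221), the gene of heme oxygenase 1, and Sptlc1 (0.0243), a subunit gene of serine palmitoyltransferase, where the median gene differed by 0.171. For Lat they were Cpsf7 (0.0161), a factor of messenger RNA cleavage, Kif23 (0.017), a kinesin of cytokinesis, and Hes6 (0.018), with a median of 0.128. Neighbouring genes were examined as well, a choice made after the values were seen. Within 100 kb of the 9 genes, 36 other genes were tested, of which 3 were called higher and 8 lower, where 11.4% and 11.9% of all tested genes were. Spns1, which ends 490 bases upstream of the start of Lat on the same strand and encodes a lysosomal lipid transporter, measured -0.28 ± 0.08 on the log2 scale (SE; adjusted p = 3.62e-03). Among the other neighbours of Lat, Sbk1 (0.401) was called higher, and Rabep2 (-0.396) and Sh2b1 (-0.323) lower. Nfatc2ip (0.047) and Gm10155 (-0.142) were not called. Near Zap70, Cox5b (-0.374) was called lower, and Actr1b (0.015) and Tmem131 (-0.02) were not called. Around the CD3 cluster, Ube4a, a ubiquitin ligase gene 3972 bases from Cd3g, had one of 0.03 ± 0.04 (adjusted p = 0.639). The genes nearest to Cd5, Vps37c and A430093F15Rik, had values of -0.03 and 0.09 and were not called (adjusted p = 0.843 and 0.432). Lck lies 5631 bases from Hdac1, a deacetylase gene that measured 0.13 on the log2 scale (adjusted p = 0.0103). Fam167b lies nearer to Lck, at 3174 bases, and was not called (adjusted p = 0.38). Other neighbours of Lck were called lower, namely Ccdc28b (-0.463), Marcksl1 (-0.426), Bsdc1 (-0.224) and Txlna (-0.171), and the rest were not called.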

How the data were processed

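Raw read counts per Ensembl gene, 1 column per library, were used as the authors deposited them. According to the submitters' processing notes, HTSeq 0.6.0, HISAT2 2.1.0, Bowtie2 2.2.3, TopHat2 and CASAVA were used with build mm10. The sources used here give neither their roles nor the annotation or strand setting. Library totals ran from 12935443 to 16451017 counts. Symbols matched 51633 of 51912 genes. GENCODE M21 gave positions, lengths and overlaps.

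All 6 libraries were fitted in edgeR 4.0.16 (R 4.3.3; limma 3.58.1 and DESeq2 1.42.0 for alternatives) with group as the only term, filterByExpr and factors by the trimmed mean of M values. The test was the quasi-likelihood F test with robust estimation. It was also run on simulated counts, which had the same spread for every gene and larger changes than those of the 9 genes. That run therefore says nothing of changes as small as theirs. Adjusted p-values are Benjamini-Hochberg over all genes tested. SE was derived from the fold change and F. CPM relate counts to scaled library totals. A count of 0 allows up to 3 counts, a limit that covers counting error only, while the 95% intervals of fold changes rest on the spread between libraries. The 9 genes, the lists and the ratios were chosen with earlier results of these data known. Named were the 9 genes, per list the up to 3 called genes of smallest p in each direction, tested counterparts of at least 1 CPM, and the 3 genes most like Cd5 and Lat, except for 1 gene that is not reported here. Alternatives covered scaling, filter, test, abundant genes, a replicate block and each library left out.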

Additional observations from a re-analysis of the deposited data

How the results depend on the processing

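The rise of Cd5 and the fall of Lat kept their calls in all 15 alternatives, while the calls of Cd247 and Zap70 each lay close to the threshold. The number of the 9 genes called higher was 1 throughout. The number called lower, 3 as reported, was 1 with upper-quartile factors, with total count alone, with no filter, with a minimum of 5 CPM and in the DESeq2 Wald test, and 1 to 3 when a library was left out. With the replicate number as a block it was 3, and over all genes 1667 were higher and 1764 lower. Libraries of the same number did not deviate together over all genes (correlations of -0.018, 0.013 and 0.008). With 3 libraries a group this cannot show that there was no pairing, and the labels do not say what the numbers mark. The signs of values near 0 turned. Cd3d measured -0.0013 with no filter and -0.0183 to 0.03 with a library left out. Cd3g measured 0.0174 with upper-quartile factors, 0.0087 with total count alone, 0.0092 with a minimum of 5 CPM, 0.0001 without the 10 most abundant genes, and -0.0269 to 0.0434 with a library left out. Lcp2 measured -0.0019 to 0.0326 with a library left out. Fcer1g measured 0.0051 with a block, 0.0137 with upper-quartile factors, 0.0054 with total count alone, 0.0055 with a minimum of 5 CPM, 0.0097 in limma-voom, and -0.1268 to 0.1797 with a library left out. The causes were not tested. Of the 5 ratios, none changed direction in any alternative run, but these runs could hardly show otherwise. A replicate block left the differences as they were, and adding 1 to each count barely moves counts of this size. Leaving out 1 of 3 libraries always moves a mean by less than the spread between libraries. It also cannot reverse groups that are apart. Only Zap70 over Lck, whose groups overlapped, could have turned. Its log2 difference went from -0.0439 to -8e-04 without RGFP966 library 2. With 3 libraries a group, 284 to 453 counts for Cd247 give less precision than 4110 to 6113 for Lat.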
